A study of Mus musculus with 12 samples.

Results

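Accessibility was described at the loci of 9 mouse genes that free fatty acids from lipids or carry them through the cell: the lipases Lpl, Lipa, Mgll, Pnpla2 and Lipe, and the fatty acid binding proteins Fabp3, Fabp4, Fabp5 and Fabp7. A region of the count table (mm10) was assigned to a gene where it overlapped the gene's span or lay within 5 kb of either end. This gave 53 of 117835 regions, 38 at the 5 lipase loci and 15 at the 4 binding protein loci, while 16300 protein-coding genes had a region in all. The data are ATAC-seq, in which the Tn5 transposase cuts open chromatin and leaves sequencing adapters there, on nuclei of tumour-associated macrophages, sorted from brain tumours of mice. The 12 libraries fall into 4 groups of 3: monocyte-derived macrophages without lipid load (MDM), lipid-laden monocyte-derived macrophages (LL-MDM), microglia without lipid load (MG) and lipid-laden microglia (LL-MG). Every group carries the genotype Ink4a/ArfKO with PDGFB, in a model that expresses the growth factor in Nestin-positive progenitors, so no group comes from a brain without tumour and none has wild-type Ink4a/Arf. The labels used here give no age, treatment or time. A group's libraries hold whatever cells the sort admitted.

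Lipases act in 3 places. Lipoprotein lipase (Lpl) is secreted and hydrolyses the triglycerides of lipoproteins outside the cell, and lysosomal acid lipase (Lipa) hydrolyses cholesteryl esters and triglycerides that arrive in the lysosome, for example with engulfed myelin. In the cytosol, adipose triglyceride lipase (Pnpla2), hormone-sensitive lipase (Lipe) and monoglyceride lipase (Mgll) take 1 fatty acid after another from the triglycerides of lipid droplets, and Mgll is also the main enzyme that ends the signal of the endocannabinoid 2-arachidonoylglycerol in brain. Fatty acid binding proteins are small cytosolic carriers of these products: Fabp4 and Fabp5 are the carriers best known in macrophages, Fabp3 is known from heart and muscle, and Fabp7 from radial glia and astrocytes.

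The RefSeq table held a start, and with it a promoter window, for 6 of the 9 genes, Lipa, Mgll, Pnpla2, Lipe, Fabp3 and Fabp7, but not for Lpl, Fabp4 and Fabp5. The 250 bases before these starts are printed because a deposited region overlaps each of them and the regions there behaved differently from gene to gene. They come from GRCm38.p6, the assembly of mm10, and read 5′ to 3′ on the gene's strand up to the base before the start. Capitals mark matches to any of 10 short motifs searched on both strands. For Mgll and Lipe, which have more than 1 annotated start, the window of the outermost start in that table is shown.
Lipa, chr19:34527475-34527724, minus strand: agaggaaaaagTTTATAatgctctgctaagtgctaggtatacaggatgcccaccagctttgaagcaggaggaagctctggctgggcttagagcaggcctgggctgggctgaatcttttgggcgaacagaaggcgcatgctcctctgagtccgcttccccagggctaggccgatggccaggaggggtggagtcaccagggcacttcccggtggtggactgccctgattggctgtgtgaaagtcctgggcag
Mgll, chr6:88724162-88724411, plus strand: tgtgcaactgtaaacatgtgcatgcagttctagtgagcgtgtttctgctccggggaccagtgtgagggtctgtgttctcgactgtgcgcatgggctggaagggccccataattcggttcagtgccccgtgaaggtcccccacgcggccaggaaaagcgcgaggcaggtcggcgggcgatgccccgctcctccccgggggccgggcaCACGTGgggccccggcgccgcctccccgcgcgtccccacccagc
Pnpla2, chr7:141454938-141455187, plus strand: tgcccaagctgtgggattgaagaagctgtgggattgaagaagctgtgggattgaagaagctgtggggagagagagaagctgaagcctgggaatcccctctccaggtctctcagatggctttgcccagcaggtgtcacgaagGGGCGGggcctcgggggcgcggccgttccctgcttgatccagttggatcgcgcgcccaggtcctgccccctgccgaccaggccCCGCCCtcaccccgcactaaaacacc
Lipe, chr7:25395988-25396237, minus strand: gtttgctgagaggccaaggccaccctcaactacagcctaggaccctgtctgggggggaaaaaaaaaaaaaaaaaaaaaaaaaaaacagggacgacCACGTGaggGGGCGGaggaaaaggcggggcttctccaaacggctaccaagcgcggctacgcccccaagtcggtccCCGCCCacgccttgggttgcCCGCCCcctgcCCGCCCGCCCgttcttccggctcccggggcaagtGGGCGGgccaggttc
Fabp3, chr4:130308488-130308737, plus strand: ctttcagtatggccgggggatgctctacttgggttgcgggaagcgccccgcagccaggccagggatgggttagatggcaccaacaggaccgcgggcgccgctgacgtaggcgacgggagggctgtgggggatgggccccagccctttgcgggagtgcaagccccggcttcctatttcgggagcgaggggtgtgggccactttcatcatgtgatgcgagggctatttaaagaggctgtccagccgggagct
Fabp7, chr10:57784673-57784922, plus strand: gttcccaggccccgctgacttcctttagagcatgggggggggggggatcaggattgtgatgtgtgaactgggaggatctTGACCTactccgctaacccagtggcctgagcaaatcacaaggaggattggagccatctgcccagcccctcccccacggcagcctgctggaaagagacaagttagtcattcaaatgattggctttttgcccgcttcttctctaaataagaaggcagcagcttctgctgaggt
In the Lipa window the capitals are a TATA box letter match (TATAAA) on the opposite strand, 239 to 234 bases before the start, and 186 of the window's bases lie in a deposited region. The Mgll window holds 1 E-box (CACGTG) 44 to 39 bases before the start, with 67 bases in a region. The Pnpla2 window holds 2 GC boxes (GGGCGG, 1 on each strand) and lies wholly in a region, as does the Lipe window, which holds 1 E-box and 6 GC boxes. The Fabp3 window, with 219 bases in a region, held none of the 10 motifs, and the Fabp7 window, with 185 bases in a region, holds 1 nuclear receptor site (AGGTCA) on the opposite strand. Of 32851 windows of the same length, 6.02% held the E-box, 32.7% a GC box, 12.4% the TATA letters and 14.02% the AGGTCA site. The other motifs searched were direct repeats of AGGTCA spaced by 1 base (AGGTCANAGGTCA, 0.033% of windows) or by 4 (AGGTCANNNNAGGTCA, 0.015%), TCACGTGA (0.785%), which contains the E-box, GAGGAAGT (2.44%), TTGCNNAA (9.56%) and TGANTCA (6.75%). A letter match does not show that a factor binds there.

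Which library belongs to which group had to be settled first. Column names and sample descriptions place the libraries in 1 way, the sample titles place 8 of the 12 in another group, and both cannot be right. With the column names, 13 microglia markers summed to 437 to 471 CPM (counts scaled by the library's total) in MDM, 522 to 546 in LL-MDM, 504 to 814 in MG and 803 to 865 in LL-MG, and 13 markers of monocyte-derived macrophages to 1279 to 1346, 706 to 778, 548 to 571 and 564 to 582 in the same order of groups. Of the 13 microglia markers, 7 were called higher and 0 lower in MG than in MDM (20.4% and 20.6% of all loci). In LL-MDM 6 were higher and 0 lower than in MDM (11.7% and 12.2%). Of the 12 MDM markers tested, 9 and 7 were lower in these comparisons, and 0 were higher. Single markers departed from the sums. Tmem119 stood at 69.1 to 81.0 CPM in LL-MDM, against 37.2 to 51.9 in MG. Ccr2 ran from 10.2 to 42.8 CPM in MG, against 22.6 to 27.6 in MDM. With the groups given by the titles, edgeR called 0 of 40 member regions and 0 of 9 member loci between MG and MDM, with 0 at an unadjusted p under 0.05. Over all features that grouping likewise gave 0 calls among 77737 regions and 0 among 15540 loci by edgeR, with 183 regions and 66 loci at an unadjusted p under 0.05. The values below all rest on the column names. Region totals ran from 1162969 (LL-MDM 1) to 18938222 counts (MDM 2), and 3 counts correspond to 2.58 CPM in the former and 0.158 CPM in the latter. The 3 MG libraries differed from each other more than those of any other group did: the chi-square of their counts per degree of freedom was 5.93 for MG 1 and MG 2, 2.76 for MG 1 and MG 3 and 2.63 for MG 2 and MG 3, against 1.117 to 1.92 for pairs within the other groups. Markers of neural progenitors, astrocytes and tumour cells summed to 203 to 233 CPM in MDM, 202 to 236 in LL-MDM, 221 to 296 in MG and 359 to 372 in LL-MG (11 of the 12 have a region, and none was at 0 in a whole group). By edgeR, 5 of the 11 were higher and 3 lower in MG than in MDM (20.4% and 20.6% of all loci). In LL-MG, 5 were higher and 0 lower than in LL-MDM (12.1% and 8.44%), and likewise than in MG (9.81% and 8.64%). In LL-MDM, 0 were higher and 0 lower than in MDM. Dendritic cell markers summed to 756 to 822 CPM in MDM, 545 to 578 in LL-MDM, 550 to 619 in MG and 613 to 653 in LL-MG. Of the 8, 1 was called higher and 4 lower in MG than in MDM. In LL-MDM 0 were higher and 5 lower than in MDM (11.7% and 12.2% of all loci). In LL-MG 3 were higher and 1 lower than in LL-MDM, and 1 was higher and 0 lower than in MG. Neutrophil markers summed to 73.2 to 80.2, 69.9 to 88.6, 38.5 to 92.9 and 39.95 to 43.9 CPM in the same order. Of the 4 tested, 0 were called higher and 2 lower in LL-MG than in LL-MDM (12.1% and 8.44% of all loci). In LL-MG 0 were higher and 1 lower than in MG (9.81% and 8.64%). The part of these cells and marker differences in the results below was not tested. The titles also name 3 mice, each with 1 library of every title group, but since the titles conflict with the column names no library was tied to an animal here. A p-value therefore reflects library-to-library spread, which may in part be technical. In sorted populations, a lower level in each cell and fewer cells with an open region cannot be told apart.

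Levels are CPM on totals scaled by the trimmed mean of M values, either of a single region or of all regions of a locus summed. Scaling factors were set separately for regions and for locus sums. They were 0.888 and 1.02 in MG 2, and 0.975 and 1.03 in MG 3. The levels of single regions therefore do not add up to the level of their locus. They are not divided by length and are compared between groups only, never between genes. Each difference is given as log2 fold change ± SE, by edgeR's quasi-likelihood test fitted to all 77737 regions or 15540 loci that passed the low-count filter, and a feature is called where the Benjamini-Hochberg adjusted p is under 0.05. All 9 loci passed the filter. Of the 53 regions 40 passed, and 26 of these reached the filter's level of 2.69 CPM in at least 1 library of all 4 groups. The others passed through some groups only, often those where they are high, so counts over the 40 are descriptions of the regions that passed. The 13 that did not pass include the 3 regions of Lpl.

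Microglia were set against MDM without lipid load first. The locus sums of Mgll, Pnpla2 and Fabp3 were higher in MG and those of Lipe and Fabp4 lower. These are 3 of 9 loci higher, where 20.4% of all loci were called higher, and 2 of 9 lower, where 20.6% of all loci were. Of the 40 tested regions 19 were higher (47.5%, against 26.8% of all regions) and 4 were lower (10.0%, against 24.9%), and 9 of the 19 belong to Mgll and 5 to Fabp3. Of the 19, 11 had no MDM library at the filter's level, and of the 4 lower ones 1, Fabp4 region 1, had no MG library there. With no filter, 24 of all 53 regions were called higher (24.7% of all regions) and 6 lower (22.7%). The median log2 fold change of the 53 was 0.63, beside 0.03 over all regions. Scaling to total counts moved the split over all loci from 3171 higher and 3195 lower to 4157 and 2541, but called the same numbers of member loci, 3 and 2.

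Between the lipid-laden groups, Mgll, Pnpla2 and Fabp3 were again the loci called higher in microglia (3 of 9, against 12.1% of all loci), and 0 of 9 were lower (8.44% of all loci), with 0 at an unadjusted p under 0.05 by edgeR, DESeq2 or limma. Of the 40 regions 7 were higher (17.5%, against 10.3%), 6 of them at Mgll and 1 at Fabp3, and 0 were lower (11.2% of all regions). Of the 7, 2 had no LL-MDM library at the filter's level, Mgll region 4 and Fabp3 region 5. At an unadjusted p under 0.05, 1 region was lower by edgeR, 0 by DESeq2 and 2 by limma. This comparison and the one without lipid load share no library, but both come from the same fit, with a shared spread, filter and scaling.

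In MDM, lipid load went with higher locus sums of Lpl, Pnpla2 and Fabp3 (3 of 9, against 11.7% of all loci) and a lower sum of Lipe (1 of 9, against 12.2%). Of the 40 regions 14 were higher (35.0%, against 15.4%) and 1 was lower (2.5%, against 14.1%). The 14 lie at Mgll (5), Pnpla2, Fabp3 and Fabp5 (2 each), and Lipa, Lipe and Fabp7 (1 each). Of the 14, 6 had no MDM library at the filter's level. DESeq2 called 7 of the 40 higher (11.0% of all regions) and 1 lower (10.1%). This comparison uses the same MDM libraries as the lineage comparison without lipid load.

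In microglia, the lipid-laden libraries were called higher at Lipa, Mgll and Pnpla2 (3 of 9 loci, against 9.81% of all loci) and lower at 0 of 9 (8.64% of all loci), with 0 lower at an unadjusted p under 0.05 by edgeR, DESeq2 or limma. Only 1 of 40 regions was higher (2.5%, against 4.22%) and 0 were lower (8.01% of all regions), again with 0 at an unadjusted p under 0.05 by the same 3 tools. These calls depend on which MG libraries enter. Without both MG 2 and MG 3, an alternative chosen after seeing the data, 0 of 44 regions and 0 of 9 loci were called by edgeR, where 0.0524% of all regions and 0.0963% of all loci were. Without MG 1 there were 11 of 47 regions and 5 of 9 loci, where 24.3% of all regions and 37.8% of all loci were called. Scaling to total counts moved the split over all loci from 1524 higher and 1342 lower to 1132 and 1900, and over all regions from 3280 higher and 6225 lower to 4991 and 5089. It left 2 member loci called higher, and it moved the median of all regions from 0.00 to 0.12.

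Whether lipid load went with a different change in microglia than in MDM was tested by the interaction (microglia minus MDM), which was called for 1 of 9 loci, Lipe (8.84% of all loci in either direction), and for 3 of 40 regions, Mgll region 14, Pnpla2 region 3 and Lipe region 4 (7.5%, against 10.9% of all regions). Scaling to total counts moved the split over all loci from 914 higher and 460 lower to 668 and 846, and then 0 member loci were called by edgeR (Lipe 0.42, adjusted p = 0.0576). Among the 40 regions, 20 had a positive lipid-load difference in MDM and 34 in microglia, 18 in both, whether or not the difference was called. Signs were not counted over all regions, so these counts have no share beside them. In microglia only 1 of the 40 was called. The median difference of the 40 was 0.194 in MDM and 0.27 in microglia, beside 0.015 and 0.005 over all regions. With total counts the median over all regions in microglia was 0.12.

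**Figure D1:**
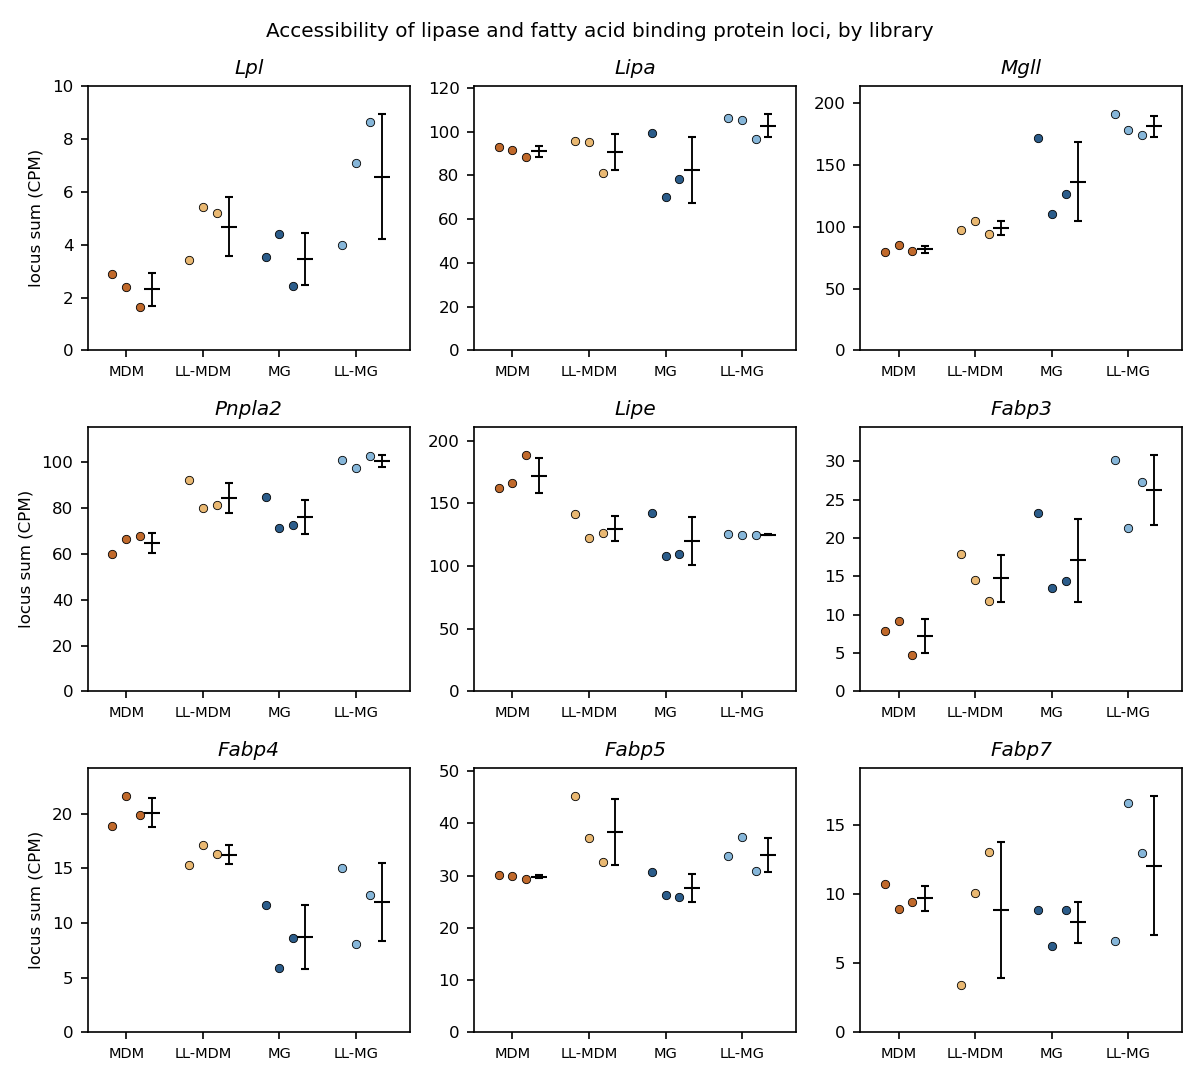
Locus sums in CPM (vertical axes, each from 0) of the 9 genes in the 4 groups. Points are libraries 1, 2 and 3 of a group from left to right, and the bar beside them is the mean ± SD (n = 3). Mgll and Fabp3 are lowest in MDM and highest in LL-MG, while Lipe and Fabp4 are highest in MDM.

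**Figure D2:**
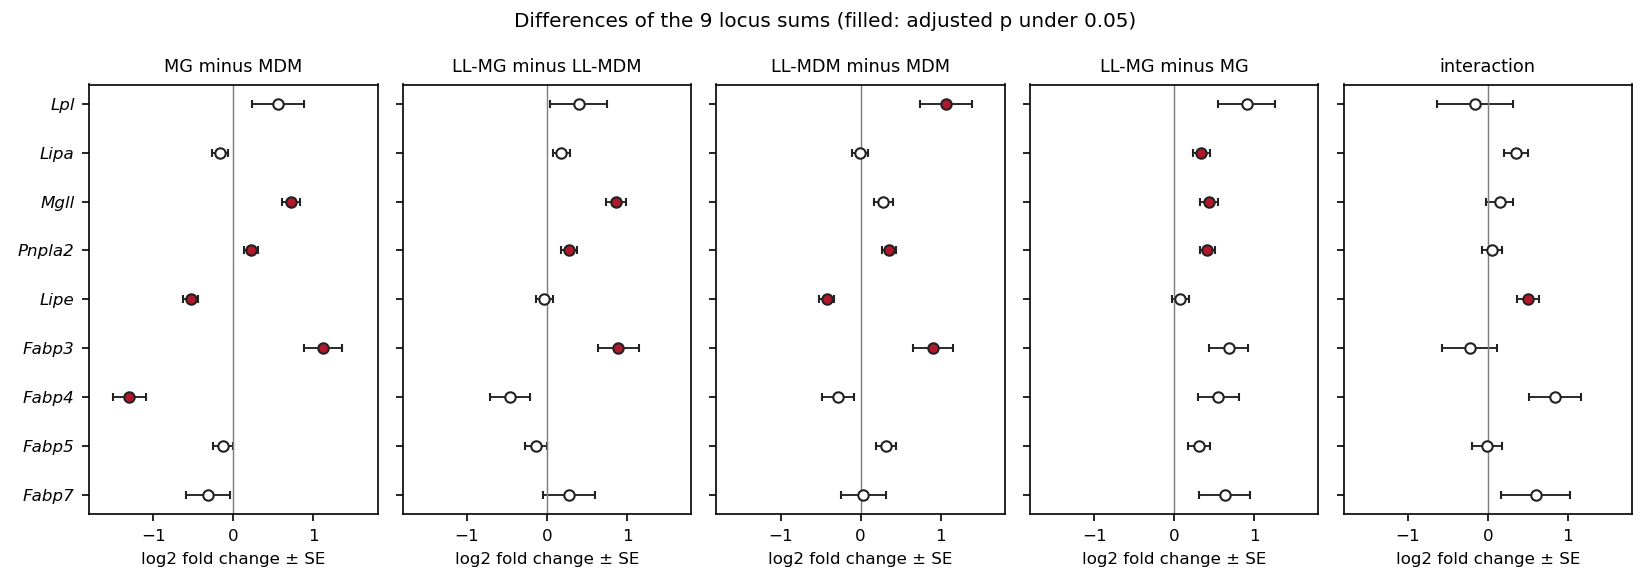
Log2 fold changes ± standard error (horizontal axes) of the 9 locus sums in the 4 group comparisons and the interaction. Filled points have an adjusted p under 0.05 in edgeR: 5, 3, 4, 3 and 1 of 9 from left to right.

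Lpl, which acts outside the cell, had the sparsest locus. Its 3 regions (59 to 106 bp wide, 2 in the span at chr8:68880555-68906932 and 1 after it) held 4 to 45 counts per library together, and each was listed as a call in only 1 group. The locus sum was 2.89, 2.40 and 1.63 CPM in MDM and 3.41, 5.44 and 5.21 CPM in LL-MDM, with no overlap between these groups. It was 3.53, 4.42 and 2.43 CPM in MG and 3.99, 7.10 and 8.64 CPM in LL-MG, where the lowest lipid-laden library lay among the MG libraries. Lipid load went with a higher sum in MDM (1.07 ± 0.33, edgeR adjusted p = 0.022), and in microglia the difference was 0.90 ± 0.36 (adjusted p = 0.0783). The call in MDM was lost without MDM 2, MDM 3, LL-MDM 2 or LL-MDM 3 (highest adjusted p = 0.184), and with the span alone (0.70, adjusted p = 0.238).

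Lipa, the lysosomal lipase, lies on the minus strand at chr19:34492316-34527474 and had 8 regions, all in the span, 5 of them called by the authors in all 4 groups. Its locus sum was 93.0, 91.7 and 88.3 CPM in MDM, 95.5, 95.3 and 81.1 CPM in LL-MDM, 99.2, 70.3 and 78.2 CPM in MG and 106, 105 and 96.8 CPM in LL-MG. The spread of MG covers both MDM groups, and the lineage difference was -0.17 ± 0.10 (adjusted p = 0.178). In LL-MG the sum was higher than in MG (0.34 ± 0.11, adjusted p = 0.035), although MG 1 lay above the lowest LL-MG library. The call was lost without MG 2 (0.21, adjusted p = 0.233), MG 3 or any 1 LL-MG library, and the difference was 0.03 (adjusted p = 0.974) without both MG 2 and MG 3. It was 0.20 (adjusted p = 0.385) after thinning to equal depth, meaning every library to the smallest region total. The locus sum hides regions that moved in opposite directions between the lineages.
The region at the Lipa start (region 8, chr19:34527075-34527660, 586 bp), which holds 186 bases of the window printed above, was at 21.8, 23.8 and 22.7 CPM in MDM, 31.3, 29.3 and 31.1 CPM in LL-MDM, 43.2, 30.1 and 29.9 CPM in MG and 38.9, 34.2 and 35.4 CPM in LL-MG. All 9 other libraries lay above the 3 MDM libraries. The region was higher in MG than in MDM (0.57 ± 0.14, adjusted p = 0.000974) and in LL-MDM than in MDM (0.41 ± 0.15, adjusted p = 0.0336); without MG 1 the first was 0.37 (adjusted p = 0.0185), and the second was lost in DESeq2 (adjusted p = 0.0959) and without any 1 of 8 libraries, all but the 3 of MG and LL-MG 2. Thinned to equal depth, they were 0.52 (adjusted p = 0.0715) and 0.28 (adjusted p = 0.461). Region 3 (chr19:34515711-34516121), 11.6 kb inside the gene and picked after its values were seen, ran the other way, at 30.9, 34.7 and 35.8 CPM in MDM and 23.0, 18.4 and 19.8 CPM in MG (-0.74 ± 0.15, adjusted p = 6.67e-05).

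Pnpla2, the lipase that begins the breakdown of triglycerides, spans chr7:141455188-141460743 on the plus strand and had 3 regions. All of its counts are also counted for a neighbour, Rplp2 or Cracr2b. The locus sum was 59.8, 66.7 and 68.0 CPM in MDM, 92.1, 80.1 and 81.1 CPM in LL-MDM, 84.8, 71.1 and 72.6 CPM in MG and 101, 97.5 and 103 CPM in LL-MG. No library of MDM reached the lowest of any other group, and LL-MG lay above all others. The lipid-load difference was 0.36 ± 0.09 in MDM (adjusted p = 0.00555) and 0.41 ± 0.09 in microglia (adjusted p = 0.00805), and the lineage differences were smaller, 0.22 ± 0.09 without lipid load (adjusted p = 0.042) and 0.28 ± 0.10 with it (adjusted p = 0.0448).
The region at the start did not carry these differences. Region 1 (chr7:141454881-141455670, 790 bp), shared with Rplp2 and containing the whole printed window, was at 45.2, 50.7 and 57.2 CPM in MDM, 55.9, 47.8 and 50.7 CPM in LL-MDM, 47.8, 52.3 and 47.8 CPM in MG and 58.4, 50.8 and 59.7 CPM in LL-MG. Its groups overlapped in all 4 comparisons, and the difference between MG and MDM was -0.04 ± 0.12 (adjusted p = 0.817).
Region 3 (chr7:141460746-141460965, 220 bp), which begins 3 bp beyond the end of Pnpla2 and also counts for Cracr2b, was at 2.51, 3.79 and 3.10 CPM in MDM. It was at 13.5, 16.6 and 15.7 CPM in LL-MDM, 22.7, 10.8 and 11.7 CPM in MG and 22.1, 27.4 and 18.04 CPM in LL-MG. MDM stood below every library of the other groups. The region was 4.93-fold higher in LL-MDM than in MDM (2.30 ± 0.26, adjusted p = 6.15e-08) and 4.50-fold higher in MG than in MDM (2.17 ± 0.25, adjusted p = 1.5e-08). Region 2 (chr7:141455754-141455957), inside the gene and also chosen after its values were seen, was at 9.91, 10.3 and 8.01 CPM in MDM and 22.0, 13.97 and 15.1 CPM in LL-MDM (0.72 ± 0.20, adjusted p = 0.00567). With the span alone, and so without region 3, the locus difference for lipid load in MDM was 0.12 (adjusted p = 0.4) and that between MG and MDM was -0.01 (adjusted p = 0.974). The lineage call without lipid load was lost without MDM 1, MDM 2, LL-MDM 2, MG 1, LL-MG 1 or LL-MG 3 (highest adjusted p = 0.199), and that with it without MDM 2, LL-MDM 2, LL-MDM 3, MG 3 or any 1 LL-MG library (highest adjusted p = 0.183). Without both MG 2 and MG 3 the first was 0.42 (adjusted p = 0.00481) and the lipid-load difference in microglia 0.23 (adjusted p = 0.649). Thinning to equal depth kept the lipid-load call of the sum in MDM (0.53, adjusted p = 0.0147). The call in microglia (0.38, adjusted p = 0.0765) and both lineage calls (0.38 and 0.23, adjusted p = 0.0598 and 0.291) were lost.

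Lipe, hormone-sensitive lipase, acts after Pnpla2 and lies on the minus strand at chr7:25379527-25398486. Its 6 regions summed to 162, 166 and 188 CPM in MDM, 141, 122 and 126 CPM in LL-MDM, 142, 108 and 109.7 CPM in MG and 125, 124 and 125 CPM in LL-MG. The MDM libraries lay above all 9 others. The sum was lower in MG than in MDM (-0.54 ± 0.09, adjusted p = 7.89e-05) and lower in LL-MDM than in MDM (-0.42 ± 0.10, adjusted p = 0.00281). Between MG and LL-MG the difference was 0.08 ± 0.10 (adjusted p = 0.616), and the interaction was 0.50 ± 0.14 (adjusted p = 0.0282). Without both MG 2 and MG 3 the difference between MG and MDM was -0.25 (adjusted p = 0.072) and the interaction 0.22 (adjusted p = 0.408), and the interaction was also lost without MDM 3, LL-MDM 2, LL-MDM 3, MG 3 or any 1 LL-MG library (highest adjusted p = 0.103). By contrast the lower sum in LL-MDM stayed called without any 1 library. Neighbouring Cxcl17 shares 64.8% of the counts of the Lipe locus.
Inside the gene, region 4 (chr7:25385780-25386708, 929 bp), which no other gene shares, was at 51.9, 61.4 and 69.9 CPM in MDM, 37.2, 36.7 and 35.3 CPM in LL-MDM, 42.2, 26.7 and 21.9 CPM in MG and 35.9, 33.3 and 34.3 CPM in LL-MG. It was lower in MG than in MDM (-1.05 ± 0.16, adjusted p = 1.94e-06; -0.52, adjusted p = 0.0102, without both MG 2 and MG 3) and lower in LL-MDM than in MDM (-0.74 ± 0.16, adjusted p = 0.000685). The region at the start (region 5, chr7:25395212-25396485, 1274 bp, shared with Cxcl17), which contains the printed window, was at 99.6, 95.2 and 115 CPM in MDM, 96.5, 77.2 and 86.03 CPM in LL-MDM, 94.2, 90.1 and 88.6 CPM in MG and 77.0, 77.7 and 76.0 CPM in LL-MG. The difference between MG and MDM there was -0.18 ± 0.11 (adjusted p = 0.173) and that between LL-MDM and MDM -0.28 ± 0.11 (adjusted p = 0.0638), and with loess offsets both passed the test (-0.36 and -0.34, adjusted p = 0.000518 and 0.00316). Region 1 (chr7:25376677-25376798), 2.7 kb beyond the far end of the gene, went against the locus: it was at 0.559, 0.883 and 0.817 CPM in MDM, 3.54, 3.28 and 2.798 CPM in MG and 4.33, 4.04 and 4.51 CPM in LL-MG (MG against MDM 2.05 ± 0.37, adjusted p = 2.42e-05). In LL-MDM it was at 0.846, 2.93 and 2.29 CPM, and its call against MDM (1.69 ± 0.41, adjusted p = 0.0018) was lost without LL-MDM 2 (1.26, adjusted p = 0.193).

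Mgll, the last enzyme of the cytosolic sequence, spans chr6:88724412-88828360 on the plus strand and had the most regions of the 9 genes, 18. The locus sum was 79.2, 85.0 and 80.7 CPM in MDM, 97.2, 105 and 93.9 CPM in LL-MDM, 172, 111 and 127 CPM in MG and 191, 178 and 175 CPM in LL-MG. The 4 groups did not overlap and stood in the order MDM, LL-MDM, MG, LL-MG. The lineage difference was 0.71 ± 0.11 without lipid load (adjusted p = 5.3e-05) and 0.86 ± 0.12 with it (adjusted p = 7.46e-05). The lipid-load difference was 0.28 ± 0.12 in MDM (adjusted p = 0.0925) and 0.43 ± 0.12 in microglia (adjusted p = 0.0193). Both lineage calls held without any 1 library, and the first was 1.09 (adjusted p = 3.26e-15) without both MG 2 and MG 3. The lipid-load call in microglia was lost without MG 2 (0.28, adjusted p = 0.0764), MG 3 or any 1 LL-MG library, and the difference was 0.06 (adjusted p = 0.936) without both MG 2 and MG 3. In MDM the lipid-load difference passed when MDM and LL-MDM were fitted alone (0.30, adjusted p = 0.00112).

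**Figure D3:**
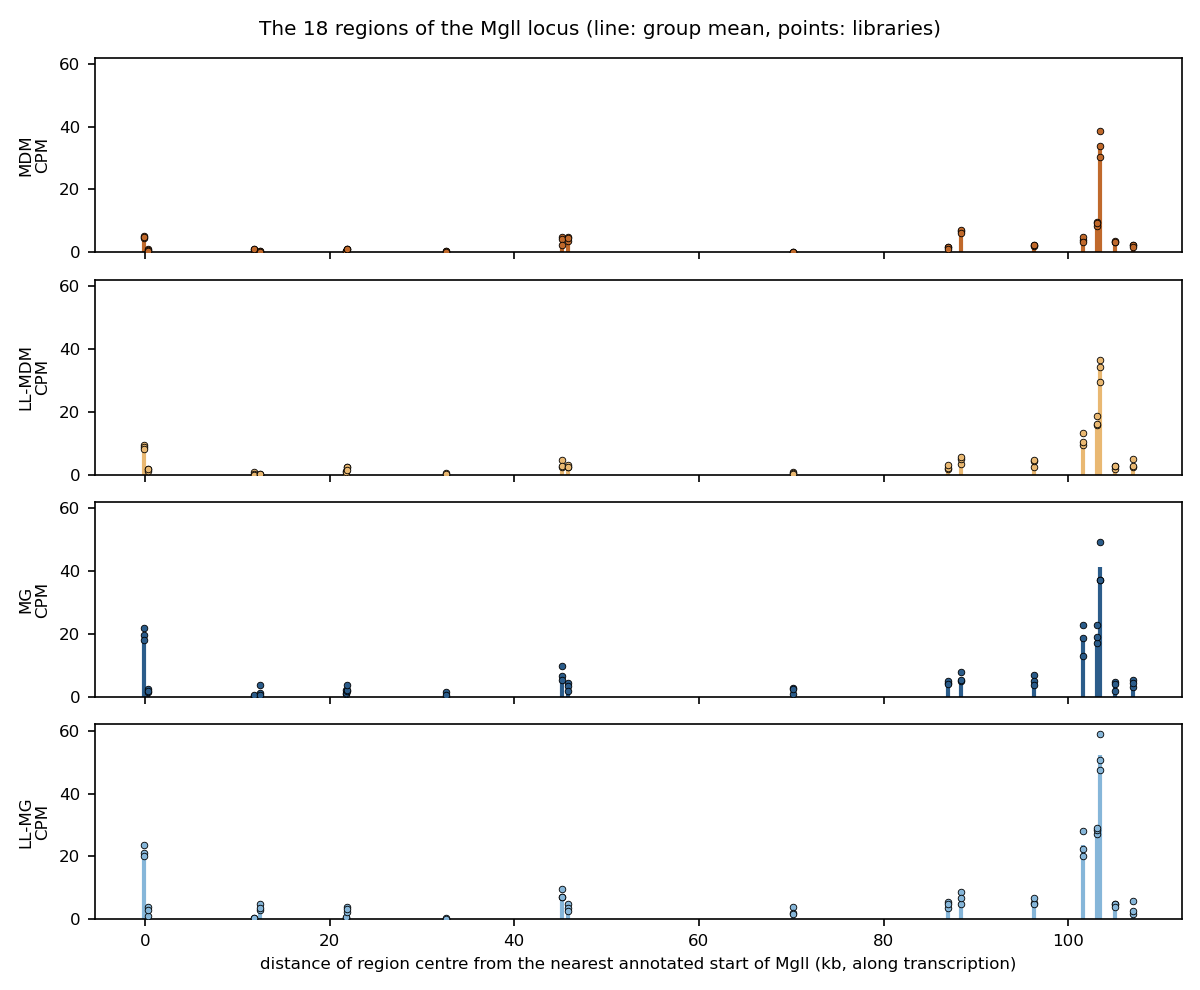
CPM (vertical axes) of the 18 regions of the Mgll locus against the distance of their centres from the nearest annotated start (horizontal axis, kb in the direction of transcription), 1 panel per group. Lines are group means and points are libraries. The regions at the start and near the far end of the gene are lower in the MDM panel than in the microglia panels, and the tallest region, near the far end, is high in every group.

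Along Mgll the lineage difference was not spread evenly, and it included the start. Region 1 (chr6:88724345-88724899, 555 bp), which covers the start and the last 67 bases of the printed window, was at 4.54, 5.04 and 4.90 CPM in MDM, 9.31, 8.91 and 8.18 CPM in LL-MDM, 22.0, 19.7 and 18.2 CPM in MG and 21.2, 20.2 and 23.6 CPM in LL-MG. LL-MDM stood between MDM and both microglia groups without overlap, and MG and LL-MG overlapped. The region was 4.09-fold higher in MG than in MDM (2.03 ± 0.18, adjusted p = 6.6e-11), 2.48-fold higher in LL-MG than in LL-MDM (1.31 ± 0.21, adjusted p = 2.32e-05) and 1.81-fold higher in LL-MDM than in MDM (0.86 ± 0.21, adjusted p = 0.0023). Between LL-MG and MG the difference was 0.13 ± 0.19 (adjusted p = 0.686).
Region 14 (chr6:88826161-88826371, 211 bp), 102 kb into the gene, was at 4.05, 4.83 and 3.43 CPM in MDM, 9.31, 13.2 and 10.5 CPM in LL-MDM, 23.0, 13.1 and 18.9 CPM in MG and 28.1, 20.2 and 22.2 CPM in LL-MG. It was higher in MG than in MDM (2.07 ± 0.22, adjusted p = 1.36e-09) and in LL-MDM than in MDM (1.45 ± 0.23, adjusted p = 1.49e-05). After the counts were thinned to equal depth the latter was 0.79 (adjusted p = 0.301), and the LL-MDM calls of regions 1 and 15 were lost in the same way (0.58 and 0.43, adjusted p = 0.374 and 0.398). So was the MG call of region 15 (0.65, adjusted p = 0.102). Region 15 (chr6:88827650-88827907), 1.5 kb farther on, was at 8.38, 9.50 and 9.31 CPM in MDM, 18.6, 15.7 and 16.03 CPM in LL-MDM, 23.0, 17.2 and 19.1 CPM in MG and 27.3, 28.3 and 29.1 CPM in LL-MG. It was the single member region called between LL-MG and MG (0.54 ± 0.17, adjusted p = 0.0394), a call lost without any 1 of 5 of the 6 libraries compared (all but MG 1) and after the same thinning (adjusted p = 0.0769). Region 16 (chr6:88827934-88828409), directly beyond it and picked after its values were seen, was at 36.4, 34.2 and 29.4 CPM in LL-MDM and 58.8, 50.8 and 47.5 CPM in LL-MG (0.66 ± 0.15, adjusted p = 0.00174).
Region 4 (chr6:88737117-88737212, 96 bp), 12.5 kb into the gene, is a small region that the authors called in LL-MG alone. It held 17 counts in the 3 MDM libraries, 2 in LL-MDM, 22 in MG and 28 in LL-MG, at 0.489, 0.467 and 0.163 CPM in MDM and 3.03, 4.94 and 3.47 CPM in LL-MG. It was called between LL-MG and LL-MDM (adjusted p = 0.0002), and no fold is given against 2 counts. Its call between MG and MDM (1.961 ± 0.56, adjusted p = 0.00384) was lost without MG 1 (1.25, adjusted p = 0.0974). Of the other 13 Mgll regions, regions 2, 3, 5, 7 and 10 did not pass the filter and were not tested. Regions 6, 8, 11, 13 and 18 were also called higher in MG than in MDM, by 0.82 to 1.505. Of these, regions 6, 11, 13 and 18 had no MDM library at the filter's level. None of the tested regions was called lower in any of the 4 comparisons.

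**Figure D4:**
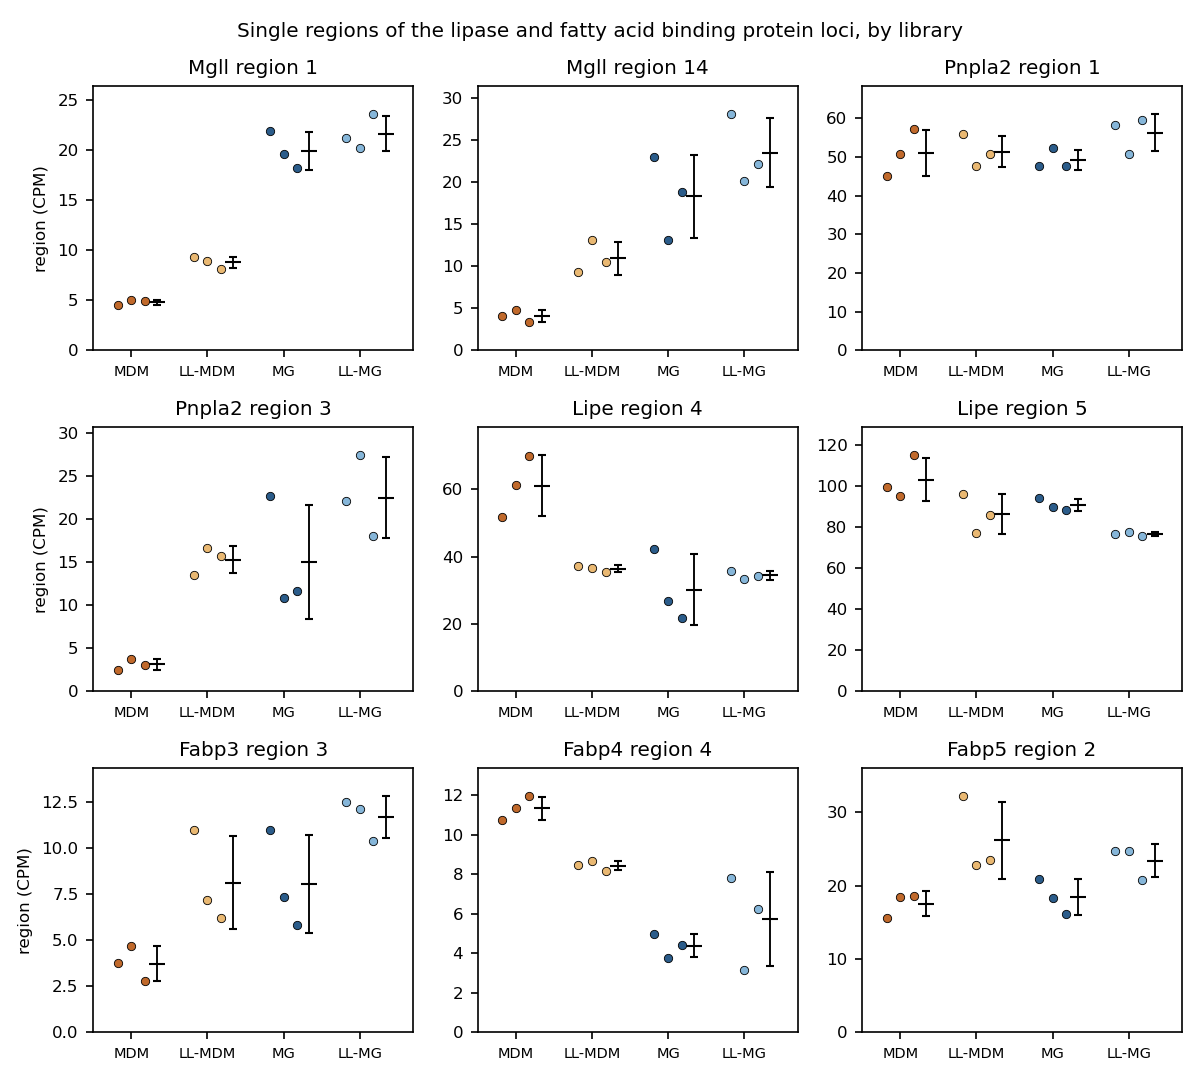
CPM (vertical axes, each from 0) of 9 single regions in the 4 groups, with points for libraries 1, 2 and 3 and bars for the mean ± SD (n = 3). Mgll regions 1 and 14 and Pnpla2 region 3 are lowest in MDM, Pnpla2 region 1 is level across groups, and Lipe region 4 and Fabp4 region 4 are highest in MDM.

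Among the carriers, Fabp3 (chr4:130308738-130315463, plus strand) had all 5 of its regions called higher in MG than in MDM. Regions 1, 2, 4 and 5 had no MDM library at the filter's level, and with lipid load region 5 was the 1 region of the 5 called between the lineages. The locus sum was 7.81, 9.13 and 4.72 CPM in MDM, 17.9, 14.6 and 11.7 CPM in LL-MDM, 23.3, 13.5 and 14.4 CPM in MG and 30.1, 21.3 and 27.4 CPM in LL-MG. MDM lay below all other groups, LL-MDM overlapped MG, and MG 1 overlapped LL-MG. The sum was 2.17-fold higher in MG than in MDM (1.119 ± 0.23, adjusted p = 0.000642), 1.88-fold higher in LL-MDM than in MDM (0.91 ± 0.25, adjusted p = 0.0117) and 1.85-fold higher in LL-MG than in LL-MDM (0.89 ± 0.26, adjusted p = 0.0175). In microglia the lipid-load difference was 0.68 ± 0.24 (adjusted p = 0.0557). The lipid-load call in MDM was lost without LL-MDM 2 (adjusted p = 0.0874), and the call between LL-MG and LL-MDM without LL-MDM 2, LL-MDM 3, LL-MG 1 or LL-MG 3 (highest adjusted p = 0.093).
The region at the Fabp3 start (region 3, chr4:130308519-130308853, 335 bp), which holds 219 bases of the printed window, was at 3.77, 4.67 and 2.78 CPM in MDM, 11.0, 7.19 and 6.22 CPM in LL-MDM, 11.0, 7.37 and 5.83 CPM in MG and 12.5, 12.1 and 10.4 CPM in LL-MG. It was higher in MG than in MDM (0.99 ± 0.25, adjusted p = 0.00134) and in LL-MDM than in MDM (0.94 ± 0.27, adjusted p = 0.00765; 0.0622 without LL-MDM 2). Region 5 (chr4:130316769-130316900), 1.3 kb past the gene and shared with Zcchc17, was at 0.698, 0.364 and 0.327 CPM in MDM, 0, 1.86 and 1.31 CPM in LL-MDM, 3.897, 2.29 and 0.6996 CPM in MG and 6.06, 2.25 and 6.24 CPM in LL-MG, from 0 to 18 counts per library. It was called in 3 comparisons, but its call for lipid load in MDM (1.59 ± 0.61, adjusted p = 0.048) was lost without LL-MDM 2 (0.90, adjusted p = 0.616) and without any 1 of 7 other libraries, and that between LL-MG and LL-MDM (1.72 ± 0.53, adjusted p = 0.0182) without any 1 LL-MDM library, LL-MG 1 or LL-MG 3. Regions 1, 2 and 4, which flank the start, were higher in MG than in MDM by 1.03, 1.05 and 1.61, and the first of these calls was lost in DESeq2 (adjusted p = 0.0787) and without any 1 of 6 libraries (MDM 1, MDM 2, MDM 3, LL-MDM 2, MG 1 and MG 3).

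Fabp4 (chr3:10204342-10208616), the carrier long known as a product of adipocytes and macrophages, ran the other way. Its locus sum was 18.9, 21.6 and 19.8 CPM in MDM, 15.3, 17.1 and 16.3 CPM in LL-MDM, 11.7, 5.84 and 8.61 CPM in MG and 15.1, 8.04 and 12.6 CPM in LL-MG. All 6 MDM-lineage libraries lay above all 6 microglia libraries. The sum was 2.46-fold lower in MG than in MDM (-1.30 ± 0.21, adjusted p = 3.79e-05; -0.77, adjusted p = 0.0314, without both MG 2 and MG 3), and -0.46 ± 0.25 between LL-MG and LL-MDM (adjusted p = 0.199). With every library thinned to the total of the smallest, the first was -0.55 (adjusted p = 0.295).
Region 4 (chr3:10213335-10213994, 660 bp), 4.7 kb beyond the gene, was at 10.8, 11.3 and 11.9 CPM in MDM, 8.46, 8.65 and 8.18 CPM in LL-MDM, 4.96, 3.77 and 4.43 CPM in MG and 7.79, 3.15 and 6.24 CPM in LL-MG (MG against MDM -1.39 ± 0.24, adjusted p = 9.13e-06). Region 1 (chr3:10205644-10205849), inside the gene and called by the authors in MDM alone, held 134 counts in MDM, 28 in LL-MDM, 7 in MG and 6 in LL-MG, at 3.07, 3.69 and 3.10 CPM in MDM and 0, 0.655 and 0.6996 CPM in MG. It was called lower in MG than in MDM (-2.62 ± 0.50, adjusted p = 4.51e-05), but not with loess offsets (-1.03, adjusted p = 0.137).

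Fabp5 (chr3:10012585-10016610) stood at 30.0, 30.0 and 29.4 CPM in MDM, 45.2, 37.3 and 32.6 CPM in LL-MDM, 30.7, 26.2 and 25.8 CPM in MG and 33.7, 37.4 and 31.0 CPM in LL-MG. Within each lineage every lipid-laden library lay above every library without lipid load, yet the differences, 0.32 ± 0.13 in MDM (adjusted p = 0.0677) and 0.31 ± 0.14 in microglia (adjusted p = 0.118), did not pass the test over all loci. The difference in MDM passed in edgeR with total-count or loess scaling (adjusted p = 0.0445 and 0.0414) and in limma (0.0356). Region 2 (chr3:10012303-10012871, 569 bp), at the low-coordinate end of the gene and chosen after its values were seen, was at 15.6, 18.4 and 18.6 CPM in MDM and 32.2, 22.8 and 23.6 CPM in LL-MDM (0.51 ± 0.16, adjusted p = 0.0178). Region 4 (chr3:10020468-10020583), 3.9 kb past the gene, was at 1.54, 1.14 and 1.797 CPM in MDM and 1.69, 3.33 and 4.25 CPM in LL-MDM, with overlap at LL-MDM 1, and was called in edgeR (1.25 ± 0.36, adjusted p = 0.00786) but not in DESeq2 (adjusted p = 0.0669), nor without MDM 1, MDM 2 or LL-MDM 3.

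Fabp7 (chr10:57784923-57788450, plus strand), the glial carrier, had 2 regions and 4 to 167 counts per library. Its locus sum was 10.7, 8.92 and 9.43 CPM in MDM, 3.41, 10.1 and 13.04 CPM in LL-MDM, 8.83, 6.27 and 8.83 CPM in MG and 6.65, 16.6 and 12.96 CPM in LL-MG, and no comparison of the sum passed the test. Of these counts 74.1% fall in region 2, which is shared with Smpdl3a. The region at the start (region 1, chr10:57784738-57784970), with 185 bases of the printed window, was at 1.54, 1.61 and 1.47 CPM in MDM, 1.69, 2.93 and 3.93 CPM in LL-MDM, 2.83, 2.62 and 4.20 CPM in MG and 2.60, 7.19 and 5.55 CPM in LL-MG. MDM lay below every other library at this region. The start region was higher in MG (1.03 ± 0.35, adjusted p = 0.0128) and in LL-MDM (0.97 ± 0.37, adjusted p = 0.0429) than in MDM; without single libraries (MDM 1, MDM 2 or MG 3 for the first, 8 of the 12 for the second) these calls were lost, with adjusted p up to 0.135 and 0.225.

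**Figure D5:**
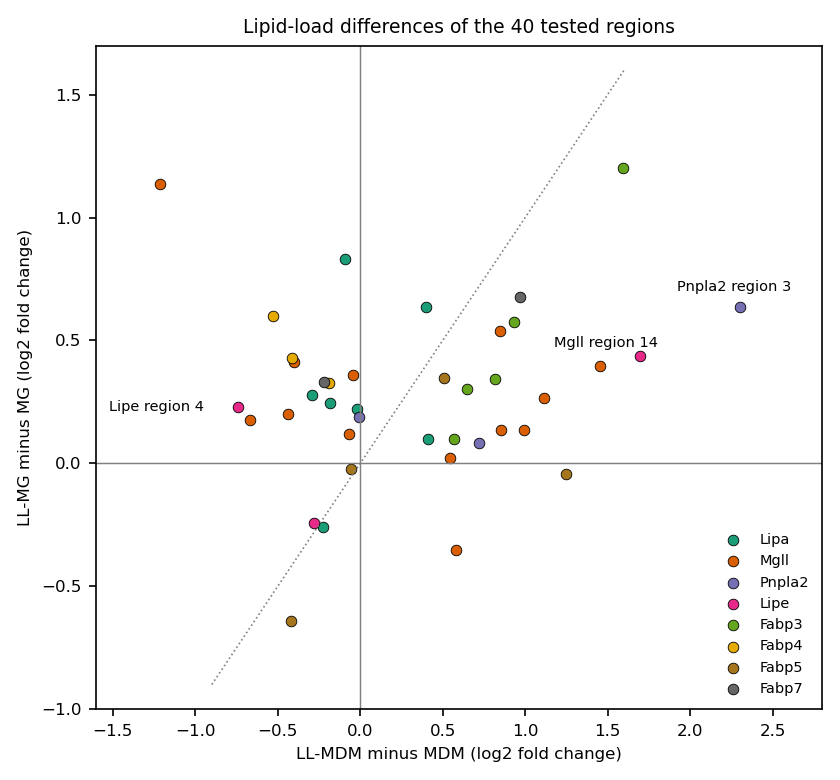
Log2 fold changes of the 40 tested regions with lipid load in MDM (horizontal axis) and in microglia (vertical axis), colored by gene, with the line of equal differences dotted. Of the 40, 18 lie above 0 on both axes and 26 have the larger difference in size in MDM, called or not. Neither was counted over all regions. The 3 named regions are those called in the interaction.

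Called status across groups in the authors' region names gave the same 53 regions from another side. An MDM call was listed for 43 (81.1%, against 89.3% of all regions), an MG call for 33 (62.3%, against 51.8%), an LL-MG call for 27 (50.9%, against 36.2%) and an LL-MDM call for 23 (43.4%, against 42.8%). Of the 53, 20 were called in all 4 groups (37.7%, against 27.6% of all regions). The regions called in all 4 groups include every region of Pnpla2 and Fabp7, 5 of 8 at Lipa, 5 of 18 at Mgll and none of the 3 at Lpl. Regions called in MDM alone were 16 of the 53 (30.2%, against 37.8% of all regions), and 24 of the 53 were called in 1 group (45.3%, against 45.7%). MDM libraries held 6341183 to 18938222 counts, and no library of the other groups held more than 7390521. The part of depth in the authors' calls was not tested. Of regions listed in MDM alone, Fabp3 region 1 and Mgll region 18 were higher in MG than in MDM by edgeR, and Fabp4 region 1 was lower. Across the 12 libraries, the locus levels of Mgll and Fabp3 had a Pearson r of 0.89 on the log2 scale, Pnpla2 and Fabp3 0.86, Mgll and Pnpla2 0.80, Lipe and Fabp4 0.75 and Lipe and Fabp3 -0.64, values in which group, depth and scaling are shared. The locus most like Mgll was Denn2b (r = 0.992 over 12 libraries), with means of 116, 143, 226 and 307 CPM in MDM, LL-MDM, MG and LL-MG. The most alike were Ndst2 for Pnpla2 (0.987), Acaa1b, a peroxisomal thiolase gene, for Fabp3 (0.971), Ripk3 for Fabp4 (0.969) and Il4i1 for Lipe (0.968).

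Other genes of the pathway were read beside the share of all loci called. It was 20.4% higher and 20.6% lower in MG against MDM, 12.1% and 8.44% in LL-MG against LL-MDM. It was 11.7% and 12.2% in LL-MDM against MDM, and 9.81% and 8.64% in LL-MG against MG. Of 17 lipase regulators, all tested, 5 were higher and 1 was lower in MG than in MDM, 3 and 1 in LL-MG against LL-MDM, 3 and 2 in LL-MDM against MDM, and 2 and 2 in LL-MG against MG, with medians of 0.11, -0.09, 0.26 and 0.01 beside 0.01, -0.01, 0.00 and 0.02 over all loci. Angptl4, a secreted inhibitor of lipoprotein lipase, ranged over 32.8 to 37.3, 53.4 to 58.3, 52.5 to 57.2 and 67.3 to 76.2 CPM in MDM, LL-MDM, MG and LL-MG, and was called in all 4 comparisons (between LL-MG and LL-MDM not without LL-MDM 3 or LL-MG 1, highest adjusted p = 0.0616), with 0.68 ± 0.10 for lipid load in MDM (adjusted p = 3.34e-05) and 0.43 ± 0.10 in microglia (adjusted p = 0.00879). Sort1, the sorting receptor sortilin, ranged over 15.8 to 22.8, 24.1 to 30.7, 42.6 to 55.1 and 57.9 to 64.7 CPM in MDM, LL-MDM, MG and LL-MG, with lineage differences of 1.23 ± 0.13 and 1.09 ± 0.15 (adjusted p = 2.35e-07 and 3.25e-05). Hilpda, an inhibitor of Pnpla2, was lower in microglia without and with lipid load (-0.33 ± 0.08 and -0.30 ± 0.09, adjusted p = 0.00134 and 0.0152), and the second call was lost without LL-MDM 3 or LL-MG 3 (highest adjusted p = 0.0635). Lmf1, a maturation factor of lipoprotein lipase, was lower with lipid load in MDM (-0.48 ± 0.09, adjusted p = 0.000913) and was the 1 regulator called in the interaction (0.54 ± 0.14, adjusted p = 0.0182). That call was lost without MDM 2, LL-MDM 2, LL-MDM 3, MG 3 or LL-MG 3 (highest adjusted p = 0.0734) and without both MG 2 and MG 3 (0.50, adjusted p = 0.0834).

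Among 28 other hydrolases of neutral lipids and lipid esters, 25 were tested, and 7 were higher and 3 lower in MG than in MDM, 6 and 1 in LL-MG against LL-MDM, 5 and 1 in LL-MDM against MDM, and 4 and 1 in LL-MG against MG, out of 25 each time. Their medians were 0.13, 0.13, 0.02 and 0.15, beside 0.01, -0.01, 0.00 and 0.02 over all loci. Pla2g15, a lysosomal phospholipase, stood at 73.3 to 83.0 (MDM), 95.8 to 109.7 (LL-MDM) and 102 to 131 CPM (MG), and was higher in MG and in LL-MDM than in MDM (0.48 ± 0.09 and 0.38 ± 0.09, adjusted p = 0.000208 and 0.00518), the second not without LL-MDM 2 (adjusted p = 0.0738). Pla2g7, a secreted phospholipase of oxidised phospholipids, was lower in microglia without and with lipid load (-0.88 ± 0.12 and -0.90 ± 0.13, adjusted p = 3.85e-06 and 3.63e-05) and higher with lipid load in MDM (0.47 ± 0.11, adjusted p = 0.00359; 0.0787 without LL-MDM 2). Abhd6, which like Mgll cleaves monoglycerides, stood at 10.1 to 11.9 CPM (LL-MDM) and 21.8 to 27.5 CPM (LL-MG), a difference of 1.15 ± 0.21 (adjusted p = 0.000464). Faah, the hydrolase of the endocannabinoid anandamide, stood at 4.63 to 5.203 CPM (MDM) and 12.0 to 20.8 CPM (MG), a difference of 1.75 ± 0.23 (adjusted p = 3.58e-06). Its interaction was -1.66 ± 0.39 (adjusted p = 0.0111, or 0.0526 without LL-MDM 2). Without both MG 2 and MG 3 the difference was 1.33 and the interaction -1.24.

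Of 13 other intracellular lipid binding proteins 7 were tested. By edgeR, 2 were higher and 2 lower in MG than in MDM and again in LL-MG than in LL-MDM. With lipid load 4 were higher and 0 lower in LL-MDM than in MDM (11.7% and 12.2% of all loci), and 3 were higher and 0 lower in LL-MG than in MG. The medians of the 4 comparisons were -0.09, -0.03, 0.32 and 0.42. Fabp12, the neighbour family member on chromosome 3, stood at 39.4 to 42.1 CPM (MDM) and 68.2 to 80.5 CPM (LL-MDM; 0.87 ± 0.12, adjusted p = 2.39e-05). Fabp1, the liver carrier, stood at 2.93 to 4.90 CPM (LL-MDM) and 21.6 to 26.03 CPM (LL-MG; 2.50 ± 0.35, adjusted p = 2.82e-05). Scp2, a sterol carrier, was lower in MG than in MDM (-1.06 ± 0.09, adjusted p = 1.08e-08) and in LL-MG than in LL-MDM (-0.91 ± 0.11, adjusted p = 6.09e-06). Of 12 genes of fatty acid uptake and activation 10 were tested, and 6 were lower and 1 higher in MG than in MDM (20.6% and 20.4% of all loci). The counts were 2 lower and 0 higher in LL-MG against LL-MDM, 1 and 0 in LL-MDM against MDM, and 2 and 2 in LL-MG against MG. The medians were -0.31, -0.06, 0.08 and 0.30. Cd36, a fatty acid and lipoprotein receptor, stood at 95.8 to 98.5 CPM (MDM) and 44.3 to 67.5 CPM (MG; -0.76 ± 0.11, adjusted p = 1.72e-05), and Slc27a2, a fatty acid transporter, at 25.2 to 27.7 and 5.30 to 13.1 CPM (-1.42 ± 0.21, adjusted p = 9.95e-06). Acsl4, an acyl-CoA synthetase with a preference for arachidonate, was the 1 that was higher (0.67 ± 0.10, adjusted p = 9.33e-06), and it was lower in LL-MG than in MG (-0.68 ± 0.11, adjusted p = 0.00214; -0.42, adjusted p = 0.303, without both MG 2 and MG 3). Without both MG 2 and MG 3 only 1 of these genes was higher and 2 were lower in MG than in MDM. The gene lists were drawn up with earlier results of these data known, and without both MG 2 and MG 3 0 genes of the 4 lists were called by edgeR between LL-MG and MG.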

How the data were processed

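ATAC-seq was measured in 12 libraries, 3 per group. Reads were counted per called region by the authors and deposited as 1 table of raw counts on mm10; the tools named, per the submitters' processing notes, are deepTools 3.5.1, Picard 2.12.0, SAMtools 1.10 and BWA 0.7.17-r1188, while the sources used here do not give the peak caller, duplicate handling or any Tn5 shift. Per the labels' protocols, nuclei were sorted, tagmented with Tn5 made in house and amplified in 2 rounds of 9 cycles, and fragments were selected by size. Counts hold no molecular identifiers, and the level given for 3 counts covers counting error only. Standard errors were derived from edgeR's test, as the size of the log2 fold change divided by the square root of its F statistic. They include the spread between libraries and are approximate.

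Groups follow the column names. The RefSeq gene table gave spans, and counts were tested per region and summed per locus (span and 5 kb either side) with edgeR 4.0.16 in R 4.3.3 (filterByExpr, TMM, robust quasi-likelihood, all 12 libraries, no covariate, Benjamini-Hochberg over all features). Alternatives were RLE, total-count and loess scaling, other filters, DESeq2 1.42.0, limma 3.58.1, other locus rules and libraries left out. Further ones were thinning to the smallest total, grouping by title and, chosen after seeing the data, omission of both MG 2 and MG 3 and 2 fits with a block. In simulated data for 15540 loci, a small subset was changed by known amounts in LL-MDM against MDM. Among the changed loci the test recovered 100% of log2 changes of 1.5, 96% of -1.5, 68% of 0.75 and 55.1% of -0.75. It also called 7 unchanged loci. All simulated loci and groups had the same spread, unlike the data, where the MG libraries differed most among themselves. Members and gene lists were chosen with earlier results of these data known. Regions named are, per gene, the one at an annotated start and up to 3 others with the smallest p in a group comparison among those called that differed by 1 or more on the log2 scale in either direction; from each gene list up to 4 genes were named by smallest p. Other regions given with their levels per library are said to have been picked after their values were seen. Further regions are named without such levels.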

Additional observations from a re-analysis of the deposited data

Results flagged for a closer look

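The difference with lipid load differed between microglia and MDM, by the interaction test in edgeR, at 1 locus sum and 3 single regions. For Lipe the locus interaction was 0.502 ± 0.14 on the log2 scale (adjusted p = 0.0282): the sum was lower with lipid load in MDM (-0.42) and stood at 0.08 in microglia. Lipe region 4, inside the gene, had an interaction of 0.972 ± 0.24 (adjusted p = 0.00958), with -0.74 in MDM and 0.23 in microglia, and 0.44 (adjusted p = 0.259) without both MG 2 and MG 3. Mgll region 14 had an interaction of -1.058 ± 0.32 (adjusted p = 0.0272), with 1.45 in MDM and 0.40 in microglia; it was lost without MDM 1, MDM 3, LL-MDM 2, LL-MDM 3, MG 3, LL-MG 2 or LL-MG 3 (highest adjusted p = 0.242) and in DESeq2 (adjusted p = 0.0746). Pnpla2 region 3 had an interaction of -1.666 ± 0.35 (adjusted p = 0.00246), with 2.30 in MDM and 0.64 in microglia, and it stayed past the threshold without any 1 library and in DESeq2, but not after the counts were thinned to equal depth (-1.31, adjusted p = 0.161). With the same thinning the Lipe locus interaction was 0.50 (adjusted p = 0.101) and that of Mgll region 14 was -0.36 (adjusted p = 0.797). In each of these the MDM libraries without lipid load stood apart from the other 3 groups, and their part in the interaction was not tested. Groups of 3 libraries were not searched for outlying samples.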

How the results depend on the processing

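Calls are counted, in the order of lineage without lipid load, lineage with it, lipid load in MDM, lipid load in microglia, and interaction, from 23, 7, 15, 1 and 3 of 40 regions and 5, 3, 4, 3 and 1 of 9 loci. The shares called over all regions were 51.7%, 21.5%, 29.5%, 12.2% and 10.9%. Over all loci they were 41.0%, 20.5%, 24.0%, 18.4% and 8.84%. A count below with no share over all features beside it is a description only. Leaving out 1 library, with 39 to 47 regions tested, gave 18 to 27, 5 to 12, 7 to 17, 0 to 11 and 2 to 6 regions, and 4 to 5, 1 to 3, 2 to 6, 1 to 5 and 0 to 3 loci. Grouping by title gave 0, 0, 7, 2 and 0 regions and 0, 0, 1, 1 and 0 loci. It also reversed Mgll region 4 (-0.28 for lineage with lipid load, 3.24 for lipid load in MDM), Lipe region 1 (-0.14) and Fabp3 region 5 (-0.80) for MG against MDM, and the Mgll sum for LL-MG against LL-MDM (-0.011). Thinning to the smallest total left 15 regions and 8 loci to test, with fewer counts by construction. For MG against MDM it gave 6 regions and 3 loci (31.1% of all regions and 24.1% of all loci, against 51.7% and 41.0% unthinned). It gave 3 regions for LL-MDM against MDM (14.7% of all regions). For LL-MG against MG it gave 0 regions and 1 locus (7.37% and 7.89%). The interaction was called for 1 region and 0 loci (3.75% and 3.37%). The fit without both MG 2 and MG 3 lends the single MG library the spread of the other groups, so its counts of calls are not set beside the others here. DESeq2 called 8 regions for LL-MDM against MDM (21.1% of all regions). For LL-MG against MG, total counts gave 2 regions, loess offsets 3, the stricter filter 2, and the 2 groups fitted alone 0 regions and 0 loci. For the interaction, loess offsets gave 5 regions and total counts 0 loci. With the span alone, 1 locus was called for LL-MG against LL-MDM and 2 for LL-MDM against MDM, and the Pnpla2 sum for MG against MDM was -0.005. With regions shared by no other gene, 1 locus was called for LL-MG against MG, and the Fabp7 sum for MG against MDM was 0.92 (adjusted p = 0.0409). The cause of these changes was not tested. Replicate numbers follow accession order, and the column numbers form 3 sets with 1 library of each group, which no label calls an animal or a batch. Deviations from the group means correlated over 0.1 across loci in 1 of 18 pairs of libraries of 1 set (-0.14 to 0.107). Of 12 libraries, 2 correlated best with their own set. For the titles' groups and mice, 10 of 18 pairs were over 0.1 (-0.623 to 0.645), and 6 of 12 libraries correlated best with their own mouse. With 3 libraries a group, such a check cannot decide whether libraries are paired. The main fit used no pairing. With a replicate block for the set there were 24, 7, 13, 0 and 3 regions and 4, 2, 4, 4 and 1 loci. With the titles' groups and a block for the titles' mice there were 0, 0, 13, 6 and 0 regions and 0, 0, 1, 1 and 0 loci. Signs turned at Mgll region 4 (-0.226 and 3.199, in the order above), Mgll region 14 (-0.059) and the Mgll sum (-0.027) for LL-MG against LL-MDM, and Fabp3 region 5 (-0.745) for MG against MDM. Counts were lowest at Lpl and Fabp7, which held as few as 4 in a library.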
